A study of Mus musculus with 12 samples.

Results

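The messenger RNA of 41 G protein-coupled receptors was examined in 12 single cultured cardiac progenitor cells (CPCs). The receptors were taken as a list by gene symbol, with no limit on any measured value, and all 41 were found among the 21729 genes of the count table. They bind lysophospholipids (10 genes), peptides (8), nucleotides and nucleosides (7), amines (7), prostanoids (6) and, for the protease-activated receptors (3), a stretch of their own cut end. The CPCs were c-Kit+ Lin- cells, sorted with magnetic beads from the non-myocyte fraction of the hearts of 12-week-old female FVB mice, a pair of hearts being pooled for each preparation. They were grown as an adherent layer on gelatin in a medium with serum, leukaemia inhibitory factor, basic fibroblast growth factor and epidermal growth factor, and were passaged 5 times before single cells were picked. The cells form 1 group, and freshly sorted cells were not analysed here. The labels name no culture or animal, so the 12 cells were treated as 1 sample: the spread given is that between cells and no test was made between them.

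Receptors of this class cross the membrane 7 times and pass the binding of a ligand to heterotrimeric G proteins, which raise or lower cyclic AMP or release calcium through phospholipase C, among other effects. In the heart they carry the signals of hormones, of nerves and of injury: clotting cuts the protease-activated receptors, serum brings sphingosine 1-phosphate (S1P) and lysophosphatidic acid (LPA), damaged cells release ATP, and inflamed tissue makes prostanoids. A cell can answer such a signal only through the receptors it makes, and their transcripts are often scarce.

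Each library held between 3453708 (cell 1) and 5690184 (cell 12) counts, and 10022 to 11950 genes were counted per cell. A gene with no count could still lie at up to 3 counts, which is 0.527 counts per 1000000 (CPM) in cell 12 and 0.869 CPM in cell 1. Reads are not independent molecules, so counting error is all that this limit and the later intervals cover. Of the markers of the sorted cell, Kit itself was counted in cell 10 alone, at 3.94 CPM, while Ly6a, Abcg2, Gata4, Cd34 and Eng were counted in all 12 cells. Cells 10 and 11 stood apart. In cell 10, 8 of 10 endothelial markers were counted and summed to 9810 CPM, against 0.629 to 58.5 CPM in the other 11 cells, with Cldn5 and Vwf at 0 in all cells, and its 8 fibroblast markers summed to 188 CPM against 536 to 6333 CPM elsewhere, 175 CPM of it from Pdgfra, which had a median of 73.1 CPM over the 12 cells. In cell 11 the smooth muscle actin gene Acta2 stood at 3668 CPM, against at most 117 CPM elsewhere, while Myh11, Rgs5, Cspg4 and Kcnj8 of the 7 mural markers were at 0 there.

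Of the 41 receptors, 29 (70.7%) were counted in at least 1 cell, beside 66.6% of all genes. Few were counted throughout: 5 (12.2%) had counts in all 12 cells, beside 35.3% of all genes. These were S1pr2 and Lpar1 for lysophospholipids, F2r for thrombin, Ptger4 for prostaglandin E2 and P2ry2 for ATP and UTP. S1pr1, S1pr3 and Calcrl were counted in 11 cells, 16 receptors in 2 to 10 cells and 5 in 1 cell. A mean of at least 10 CPM was reached by 8 receptors (19.5%), beside 39.1% of all genes. Over the receptors with a count the median of the mean level was 1.03 CPM, beside 17.0 CPM over all genes with a count. Of the 492 values (41 receptors in 12 cells), 175 (35.6%) were above 0, beside 50.5% of the values of all genes. All receptor counts together made up 0.0837% of the counts of the 12 cells.

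**Figure D1:**
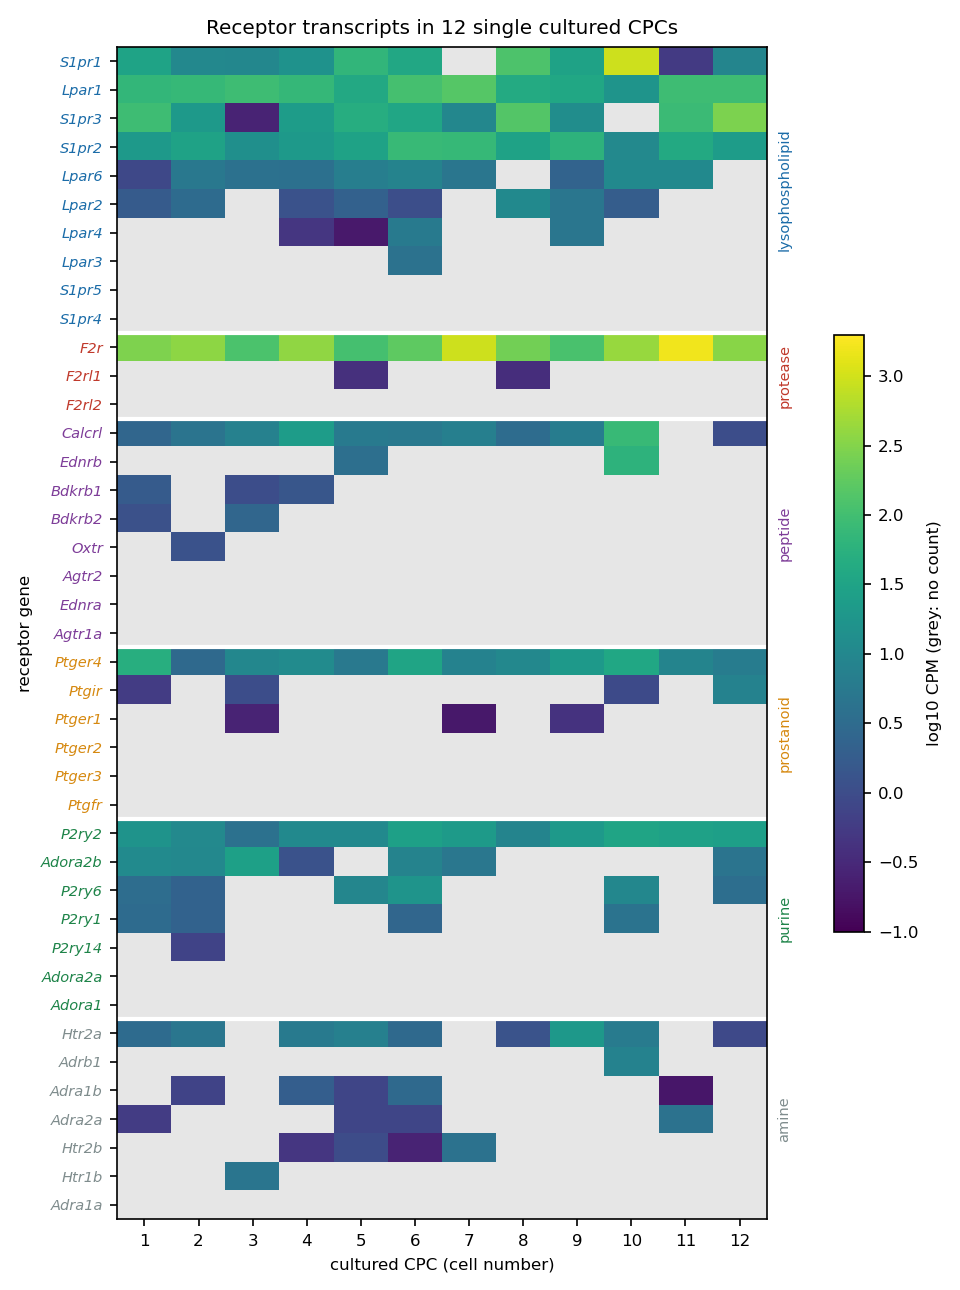
Level of each of the 41 receptors (rows, grouped by ligand) in each of the 12 cells (columns), as log10 CPM, with grey for no count. The rows of F2r, Lpar1, S1pr2, Ptger4 and P2ry2 have colour in all 12 columns, and 12 rows are grey throughout.

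Another class of surface receptor, the receptor tyrosine kinases, is shown for scale. Of 32 such genes 28 were counted, 11 (34.4%) of them in all 12 cells, and 16 had a mean of at least 10 CPM. Receptor numbers per cell varied less than levels did. Between 10 (cell 11) and 19 (cell 6) of the 41 receptors were counted in a cell, with a median of 15, and the median was again 15 after each cell was thinned to the depth of cell 1. The summed level of all receptors was lowest in cell 3 at 297 CPM, had a median of 594 CPM and was highest in cell 11 at 1896 CPM. Cells 7, 8, 10, 11 and 12 had the fewest genes counted, at most 10181, and 10 to 15 receptors each. Cells 1, 2, 4, 5 and 6 had the most genes, 11515 to 11950, and 16 to 19 receptors. In between, cell 9 with 11329 genes had 13 receptors and cell 3 with 11216 genes had 15. The part of the number of genes in the number of receptors was not tested.

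The bases before the start of a gene were compared between close relatives on the list. Genes with a promoter rich in CG dinucleotides are often transcribed in many tissues. Windows of 250 bases before the RefSeq start (build GRCm38.p6) were read for 33 of the 41 receptors, and 1 receptor counted in all 12 cells is shown beside a relative with no count for the thrombin, S1P and prostaglandin E2 receptors. Letters are 5′ to 3′ on the strand of the gene, and capitals mark CG dinucleotides.
F2r promoter (chr13:95618467-95618716, - strand): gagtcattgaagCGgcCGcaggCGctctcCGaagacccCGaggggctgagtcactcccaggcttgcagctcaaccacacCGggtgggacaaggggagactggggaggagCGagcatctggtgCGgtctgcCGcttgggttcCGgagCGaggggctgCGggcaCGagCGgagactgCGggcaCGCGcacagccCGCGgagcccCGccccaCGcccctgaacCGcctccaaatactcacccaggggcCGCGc
F2rl2 promoter (chr13:95696670-95696919, + strand): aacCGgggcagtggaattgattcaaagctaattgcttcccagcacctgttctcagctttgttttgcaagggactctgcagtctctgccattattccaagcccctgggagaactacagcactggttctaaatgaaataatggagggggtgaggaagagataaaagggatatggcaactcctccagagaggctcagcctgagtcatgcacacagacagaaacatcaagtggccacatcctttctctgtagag
S1pr2 promoter (chr9:20976794-20977043, - strand): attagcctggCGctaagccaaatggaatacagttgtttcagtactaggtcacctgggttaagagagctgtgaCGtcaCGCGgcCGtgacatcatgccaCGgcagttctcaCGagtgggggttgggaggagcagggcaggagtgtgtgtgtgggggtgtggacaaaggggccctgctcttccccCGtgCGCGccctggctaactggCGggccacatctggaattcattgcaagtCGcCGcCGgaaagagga
S1pr4 promoter (chr10:81500138-81500387, - strand): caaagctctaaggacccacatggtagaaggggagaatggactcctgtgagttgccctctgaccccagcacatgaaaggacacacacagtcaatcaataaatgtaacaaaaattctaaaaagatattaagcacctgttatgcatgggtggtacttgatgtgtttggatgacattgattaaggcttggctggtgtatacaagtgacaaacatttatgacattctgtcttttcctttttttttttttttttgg
Ptger4 promoter (chr15:5244188-5244437, - strand): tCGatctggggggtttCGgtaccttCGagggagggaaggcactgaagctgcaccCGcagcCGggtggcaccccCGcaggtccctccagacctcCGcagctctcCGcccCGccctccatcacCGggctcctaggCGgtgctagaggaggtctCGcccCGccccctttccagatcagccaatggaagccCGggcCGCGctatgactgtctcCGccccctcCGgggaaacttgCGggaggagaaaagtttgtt
Ptger3 promoter (chr3:157566626-157566875, + strand): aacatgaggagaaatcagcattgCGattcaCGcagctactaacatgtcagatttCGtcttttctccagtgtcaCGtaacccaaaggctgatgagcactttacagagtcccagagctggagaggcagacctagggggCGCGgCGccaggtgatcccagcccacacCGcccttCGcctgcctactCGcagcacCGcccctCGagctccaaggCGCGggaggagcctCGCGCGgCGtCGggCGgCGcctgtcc

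The F2r window held 24 CG dinucleotides, a number reached by 15.3% of the 16207 genes of the table with such a window, and that of F2rl2 held 1, reached by 92.9%. S1pr2 had 14 (reached by 40.95%) and S1pr4 none, but S1pr5, which was never counted either, had 22. The prostaglandin pair did not differ in this way: Ptger4 had 19 (26.5%) and Ptger3, which had no count in any cell, had 21 (21.6%), while Ptger2, a further receptor for prostaglandin E2 with no count, had 3 (77.6%). Over the list, the median was 19 CG dinucleotides for the 5 receptors counted in all 12 cells, 7 for 19 receptors counted in 1 to 11 cells and 6 for 9 receptors never counted. Over all genes the same classes had medians of 17, 11 and 2, and the median of all windows was 10. Adora1, with 19, was also never counted. The GC box, read as GGGCGG on either strand, was found in 60.6% of the receptor windows and in 44.2% of all windows. Such a match is a feature of the sequence and shows no binding.

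The thrombin receptor F2r (chromosome 13, 95601803 to 95618487 on the minus strand) was the leading receptor of these cells. Thrombin cuts its outer end, and the new end folds back as the ligand. F2r was lowest in cell 5 at 109 CPM, had a median of 320 CPM and was highest in cell 11 at 1626 CPM, followed by cell 7 at 927 CPM, with a mean of 430 ± 438 CPM (SD, n = 12 cells). Without cell 11 the mean was 321 ± 234 CPM (n = 11). Per transcript length, as transcripts per 1000000 (TPM), F2r was above every other receptor in 11 of 12 cells and held 58.6% of the summed mean level of the list. Its share of the receptor TPM of a cell ran from 26.1% in cell 10 through a median of 46.8% to 89.5% in cell 11. In cell 11 the level of Acta2 moved with that of F2r, as given above, and the part of this in the F2r value was not tested. The neighbours of F2r on the chromosome showed no such level. F2rl1, a receptor for trypsin-like proteases that lies 76.6 kb from F2r, had 2 counts in each of cells 5 and 8, and F2rl2, a further thrombin-cut receptor 78.4 kb away on the other side, had none.

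Genes that make or hold back thrombin were counted unevenly. Prothrombin (F2) itself had no count. Of the 5 genes listed, 4 were counted, 2 of them in all cells. Highest by mean TPM were Thbd, the thrombomodulin gene, whose product binds thrombin (163 ± 157 CPM, 8.50 to 550), Procr, the protein C receptor gene (75.5 ± 99.1 CPM), and F3, the tissue factor gene, which was counted in 8 cells and was highest in cell 7 at 216 CPM.

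Among lysophospholipid receptors, the largest ligand group here, 8 of 10 (80%) were counted, beside 66.6% of all genes. A mean of at least 10 CPM was reached by 4 (40%), close to the 39.1% of all genes. Lpar1 (chromosome 4, 58435255 to 58553898), a receptor for LPA, was counted in every cell: it was lowest in cell 10 at 17.1 CPM, had a median of 74.8 CPM and was highest in cell 7 at 145 CPM (mean 73.5 ± 35.4 CPM). By median TPM it stood second to F2r, at 47.7 against 270 TPM, and F2r was above Lpar1 in 12 of 12 cells. The other LPA receptors were scarcer, at a median of 2.23 TPM for Lpar6 and 0.664 TPM for Lpar2. Lpar6 ran from 0 through a median of 4.45 CPM to 11.1 CPM in cell 10 and was counted in 10 cells. Lpar2 had a median of 1.47 CPM and a highest value of 10.9 CPM in cell 8, without which its mean fell from 2.25 to 1.46 CPM. Lpar4 was counted in 4 cells, at up to 5.84 CPM, and Lpar3 in cell 6 alone, at 16 counts. Lpar6 lies wholly inside Rb1, so reads of that gene could have been counted for it.

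The make-up of the S1P receptors differed from cell to cell. S1pr1 (chromosome 3, 115710433 to 115715072), which couples to the inhibitory G protein and is a well-known receptor of blood vessel lining and lymphocytes, ran from 0 in cell 7 through a median of 22.9 CPM to 946 CPM in cell 10 (5036 counts, exact Poisson interval 4898 to 5177). The next highest value was 125 CPM in cell 8, and the mean fell from 107 ± 266 to 30.8 ± 37.2 CPM without cell 10. S1pr3 (chromosome 13, 51408639 to 51422797), which also couples to phospholipase C, had no count in cell 10, a median of 29.8 CPM and a highest value of 288 CPM in cell 12, ahead of 142 CPM in cell 8. S1pr2 (chromosome 9, 20962361 to 20976781) was counted in every cell, from 10.5 CPM in cell 10 through a median of 30.3 CPM to 79.96 CPM in cell 6. S1pr4 and S1pr5, best known from blood cells and from oligodendrocytes and natural killer cells, had no count.

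As shares of the S1P receptor TPM of a cell, 3 make-ups were seen at the extremes. S1pr1 made up 99.6% in cell 10, S1pr2 made up 81.3% in cell 7, and S1pr3 made up 91.5% in cell 12 and 78.2% in cell 11. All 3 were counted in 10 cells: in cell 6, for example, S1pr1 stood at 41.2%, S1pr2 at 32.9% and S1pr3 at 26.0%. In cell 3 S1pr3 fell to 1.18% beside 63.9% for S1pr1.

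**Figure D2:**
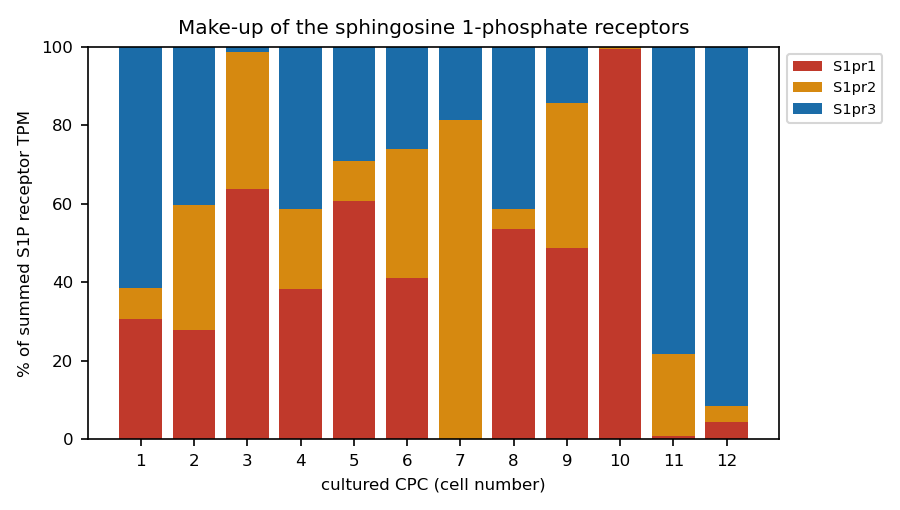
Share of S1pr1, S1pr2 and S1pr3 in the summed TPM of S1P receptors (bars, in %) for each of the 12 cells. The bar of cell 10 is 99.6% S1pr1, that of cell 7 is 81.3% S1pr2 and that of cell 12 is 91.5% S1pr3.

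All 10 listed genes that make, move or break down S1P and LPA were counted, 6 of them in all cells. The lipid phosphatases Plpp2 (154 ± 52.0 CPM), Plpp1 (158 ± 140 CPM) and Plpp3 (84.6 ± 54.9 CPM) were highest by mean TPM. Sphk1, a kinase that makes S1P, ran from 0 in cell 10 through a median of 63.5 CPM to 205 CPM in cell 11. Spns2, which carries S1P out of the cell, went the other way, at 164 CPM in cell 10 with no other cell above 6.28 CPM. Enpp2, the gene of the LPA-making enzyme autotaxin, stood at 110 CPM in cell 3 with no other cell above 5.63 CPM.

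Peptide receptors were counted in part of the cells: 5 of 8 had a count and none had counts in all 12 cells. Calcrl (chromosome 2, 84330626 to 84425411) forms the adrenomedullin and CGRP receptors together with a RAMP protein. It was not counted in cell 11, had a median of 5.67 CPM and was highest in cell 10 at 80.2 CPM, ahead of 24.2 CPM in cell 4. Without cell 10 its mean fell from 12.4 ± 22.2 to 6.19 ± 6.46 CPM. Its partners were more uneven still: Ramp2 reached 873 CPM in cell 10 and no other cell was above 11.6 CPM, Ramp3 reached 77.2 CPM there with no other above 3.18 CPM, and Ramp1 had no count. The ligand gene Adm was counted in all 12 cells, from 3.35 CPM through a median of 23.3 CPM to 361 CPM in cell 11, the cell without Calcrl, whereas the CGRP genes Calca and Calcb had no count. Adm, Ramp2 and Ramp3 were the highest of these 7 genes by mean TPM, and 4 of the 7 were counted.

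Ednrb, the endothelin receptor of blood vessel lining, was counted in 2 cells, at 59.9 CPM in cell 10 (319 counts, interval 285 to 356) and at 3.78 CPM in cell 5. Ednra, its smooth muscle relative, had no count in any cell, cell 11 included. Of the kinin receptors, Bdkrb1 was counted in 3 cells at up to 1.74 CPM and Bdkrb2 in 2 cells at up to 2.64 CPM. The oxytocin receptor gene Oxtr had 5 counts in cell 2, and the angiotensin receptor genes Agtr1a and Agtr2 had none, although reads of Agtr1a can be lost to its close copy Agtr1b. Of 11 genes for the ligands and proteases of these systems 6 were counted, 2 in all cells. The endothelin-converting enzyme genes Ece1 (537 CPM in cell 10, 100.9 CPM or less elsewhere) and Ece2 (45.3 ± 21.8 CPM) were highest by mean TPM, followed by Agt, which reached 99.1 CPM in cell 3 and at best 2.61 CPM in any other. Edn1 was counted in 3 cells at up to 4.18 CPM, and Edn2, Edn3, Ren1 and Kng1 had no count.

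Of the prostanoid receptors, 3 of 6 were counted. Ptger4 (chromosome 15, 5206661 to 5244187), which raises cyclic AMP on prostaglandin E2, was counted in all cells, from 2.96 CPM in cell 2 through a median of 9.97 CPM to 49.2 CPM in cell 1 and 37.0 CPM in cell 10. Genes Ttc33 and Gm15937 share 16.5% of its exon bases. Ptgir, for prostacyclin, was counted in 4 cells, at 7.91 CPM (45 counts) in cell 12 and at most 1.05 CPM elsewhere. Ptger1 had at most 2 counts in any of 3 cells, and 71.0% of its exon bases lie in exons of another gene. Ptger2, Ptger3 and Ptgfr had no count.

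The listed enzymes of prostanoids covered a wide range per length, from a mean of 594 TPM for Ptgis to 0.0747 TPM for Ptgds. Ptges, at 4.48 TPM, was counted in 4 cells and fell from a mean of 6.61 to 2.42 CPM without cell 1. Among the receptors, Ptger4 stood at 7.13 TPM and Ptgir at 0.766 TPM. All 10 listed genes of this system were counted, 5 of them in all cells, but Ptgds and Hpgd had only 2 and 3 counts, in cell 6 alone. Ptgis, the prostacyclin synthase gene, was highest by mean TPM and stood between 228 and 960 CPM (547 ± 214 CPM). Ptges3 (224 ± 88.1 CPM) and Ptgs2, the inducible cyclooxygenase gene (1.59 to 1240 CPM, 323 ± 364), followed by mean TPM. Ptgs2 and Ptgir were both highest in cell 12.

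Of 7 receptors for nucleotides and adenosine, 5 were counted. P2ry2 (chromosome 7, 100996568 to 101012866), which answers ATP and UTP through phospholipase C, was counted in every cell: it was lowest in cell 3 at 3.96 CPM, had a median of 18.8 CPM and was highest in cell 10 at 32.9 CPM, ahead of 29.1 CPM in cell 11. P2ry6, for UDP, which lies 21.9 kb away, was counted in 6 cells, with a median of 1.11 CPM and a highest value of 16.7 CPM in cell 6. Adora2b, the low-affinity adenosine receptor, was counted in 7 cells, with a median of 2.88 CPM and a highest value of 27.9 CPM in cell 3, without which its mean fell from 5.75 to 3.74 CPM. P2ry1, for ADP, was counted in 4 cells at up to 4.32 CPM, P2ry14, for UDP sugars, had 3 counts in cell 2, and Adora1 and Adora2a had none. Of 8 genes that make or clear these ligands 7 were counted, 3 in all cells. The adenosine transporter gene Slc29a1 (1480 CPM in cell 10, at most 307 CPM elsewhere), the adenosine kinase gene Adk (381 ± 211 CPM) and the ectonucleotidase gene Entpd1 (910 CPM in cell 10, at most 30.5 CPM elsewhere) were highest by mean TPM, and Nt5e, which makes adenosine outside the cell, was counted in 4 cells at up to 10.5 CPM.

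Amine receptors were counted in 6 of 7 cases, but none had a mean of 10 CPM. The serotonin receptor gene Htr2a came nearest, with counts in 9 cells, a median of 3.05 CPM and a highest value of 19.9 CPM in cell 9. Htr2b, inside the span of Psmd1, was counted in 4 cells at up to 4.18 CPM, and Htr1b in cell 3 alone at 18 counts. Of the adrenergic receptors, Adra1b was counted in 5 cells at up to 2.92 CPM and Adra2a in 4 cells at up to 4.15 CPM. Adrb1, the main beta receptor of heart muscle, was counted in cell 10 alone, at 43 counts (8.07 CPM), and Adra1a had no count. Of 8 genes for amine and oxytocin synthesis and clearance 3 were counted, 2 of them in all cells. The gene of the degrading enzyme Maoa stood at 74.4 ± 45.9 CPM, and Dbh was counted in cell 2 at 1.23 CPM. Tph1, Ddc, Th, Slc6a4 and Oxt had no count.

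Ranked by median TPM, the order of levels was F2r (270), Lpar1 (47.7), S1pr1 (20.3), S1pr3 (18.3), P2ry2 (13.2), S1pr2 (10.6), Adora2b (4.58), Ptger4 (4.10) and Calcrl (3.22). Only the step from F2r to Lpar1 held in all 12 cells. Lpar1 was above S1pr1 in 8 cells, S1pr1 above S1pr3 in 6 and S1pr3 above P2ry2 in 8. P2ry2 was above S1pr2 in 5 cells and S1pr2 above Adora2b in 9. These steps below F2r did not hold in every cell, and none was tested. By mean TPM, F2r, S1pr1 and Lpar1 held 82.6% of the level of the list, and without cell 10 the order was F2r, Lpar1, S1pr3 and S1pr1.

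**Figure D3:**
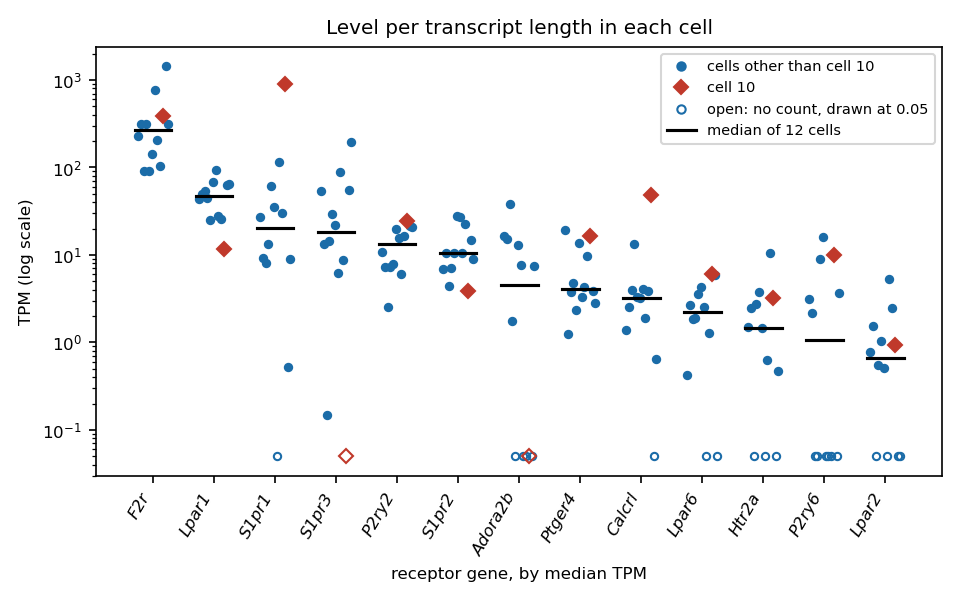
TPM (log axis) of the 13 receptors with the highest medians, 1 point per cell, with bars at the median of 12 cells, diamonds for cell 10 and open symbols for no count. F2r has its median at 270 TPM and Lpar1 at 47.7 TPM, and the diamond of S1pr1 stands at 912 TPM.

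Receptors were also unequal in how much they varied. The coefficient of variation of CPM was squared, put on a log10 scale and set against the running median of genes of like mean level, so that 0 is the typical gene. The 9 receptors that could be measured, with a mean of at least 5 CPM and counts in at least 3 cells, are given beside 9701 genes, whose middle range was -0.19 to 0.22. Adora2b (0.34) passed the limit of 5 CPM through its value in cell 3. S1pr1 (1.49), F2r (0.94), S1pr3 (0.90) and Calcrl (0.76) varied most. Single cells weigh on these values: cell 10 held 73.6% of the summed CPM of S1pr1 and 54.1% of that of Calcrl. Cell 12 held 37.9% of that of S1pr3 and cell 11 held 31.5% of that of F2r. Ptger4 (0.22) lay at the upper end of the middle range, S1pr2 (0.13) and Lpar1 (0.02) lay near the typical gene, and P2ry2 (-0.19) lay below it. The 8 receptors counted in at least 11 cells form 28 pairs, whose rank correlations over the 12 cells had a median of -0.04. The most negative was that of S1pr3 with Calcrl (Spearman's coefficient -0.84, Pearson's r of log2(CPM + 1) -0.74), which stood at -0.79 and -0.57 without cell 10, and the most positive rank correlation was that of S1pr1 with Ptger4 (0.50 and 0.48), which stood at 0.38 and 0.30 without cell 10. By Pearson's r the extremes were S1pr1 with Lpar1 (-0.86, and -0.75 without cell 10, where S1pr1 with F2r at -0.78 was the most negative) and S1pr1 with Calcrl (0.59, and 0.24 without cell 10), and without cell 10 the most positive pair by both measures was S1pr2 with P2ry2 (0.63 and 0.68). All genes of a cell share its library and depth, and no test was made.

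In cell 10 lay over 50% of the summed CPM of 4 of the 29 counted receptors (13.8%), beside 3.26% of all counted genes. These were Adrb1 (100%), Ednrb (94.1%), S1pr1 (73.6%) and Calcrl (54.1%). S1pr1 was 61.6-fold above the median of the other 11 cells and 7.54-fold above the highest of them. Calcrl was 14.4-fold above that median and 3.31-fold above the highest, and Ednrb was 15.8-fold above the next cell. Adrb1 was at least 9.29-fold higher than the level of 3 counts in any other cell. The highest value of 7 receptors (24.1%) fell in cell 10, beside 11.6% of counted genes, the other members being P2ry1, P2ry2 and Lpar6, which was all but level with cell 11 (11.08 against 11.01 CPM). Cell 6 came next, with the highest value of 5 receptors (17.2%) beside 8.68% of counted genes. Other receptors went the opposite way: S1pr2 and Lpar1 had their lowest values in cell 10, and S1pr3 was counted in each of the other 11 cells but not in cell 10. F2r was at 437 CPM in cell 10, within the range of the other 11 cells. The endothelial marker sum of 9810 CPM moved with these values, as did partners of the receptors (Ramp2, Ramp3, Spns2, Ece1, Entpd1), and its part in them was not tested. A further 10 receptors had over 50% of their sum in 1 other cell, 14 of 29 (48.3%) in all beside 21.4% of counted genes. None of these 10 was above 45 counts or 7.91 CPM, a size like that of Adrb1 in cell 10 (43 counts, 8.07 CPM). Larger values with a smaller share of the sum also lay outside cell 10, such as F2r at 1626 CPM in cell 11 and S1pr3 at 288 CPM in cell 12.

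**Figure D4:**
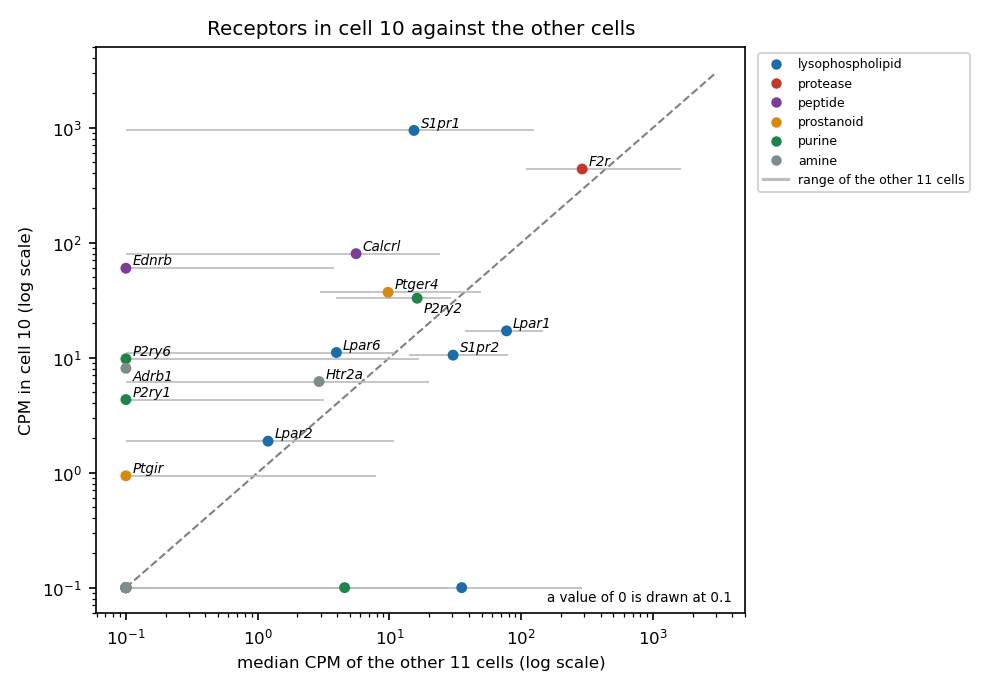
CPM of each receptor in cell 10 (vertical) against the median of the other 11 cells (horizontal), both on log axes, with grey lines for the range of those cells and 0 drawn at 0.1. S1pr1 (946 CPM), Calcrl (80.2 CPM) and Ednrb (59.9 CPM) lie above the dashed line of equality, while Lpar1 (17.1 CPM) and S1pr2 (10.5 CPM) lie below it.

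The genes that act with the receptors were counted at shares not far from those of all genes. Of 122 genes for G proteins, their regulators, effectors and the ligand systems above, 97 (79.5%) were counted and 49 (40.2%) had counts in all 12 cells, beside 66.6% and 35.3% of all genes. Of 12 alpha subunit genes 11 were counted, 8 in all cells, with the inhibitory Gnai2 (701 ± 314 CPM) and Gnai3 (263 ± 78.6 CPM) and the phospholipase-linked Gna11 (164 ± 34.9 CPM) highest by mean TPM. Gna13 stood at 94.6 ± 47.3 CPM and Gna12 at 49.2 ± 36.1 CPM. Gnas, the stimulatory subunit gene, was at 4.75 ± 2.03 CPM, and 22.0% of its exon bases are shared with Nespas and Gm20721, whose part in this level was not tested. Of 12 beta and gamma subunit genes 11 were counted, 9 in all cells, led by Gng11, Gng5 and Gnb1. The receptors were also counted by main coupling, leaving out 14 that were not assigned to 1 main G protein, F2r, Lpar1, S1pr2 and S1pr3 among them. Of 6 receptors that act through the inhibitory G protein 4 were counted and 1 had a mean of at least 10 CPM, against 5 and 2 of 7 for the stimulatory G protein and 10 and 1 of 14 for phospholipase C. Calcrl, of the stimulatory group, passed 10 CPM through cell 10, so that 1 of 7 was left without that cell.

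Receptor kinases and arrestins switch receptors off. Of 8 receptor kinase and arrestin genes 6 were counted, 3 in all cells, with Grk6 (53.4 ± 21.0 CPM), Grk2 (35.2 ± 22.0 CPM) and Grk5 (20.9 ± 14.4 CPM) highest by mean TPM. Arrb1 reached 41.9 CPM in cell 10 and at best 7.90 CPM in any other, and Arrb2 at 2.95 ± 2.69 CPM. Of 15 RGS genes, whose products shorten G protein signals, 10 were counted and 3 were counted in all cells, these being Rgs19 (56.1 ± 23.5 CPM), Rgs10 and Rgs2, also the highest by mean TPM. Of 16 effector genes 15 were counted, 5 in all cells, led by the exchange factor gene Arhgef1 (65.7 ± 29.7 CPM) and the phospholipases Plcb3 (36.8 ± 24.7 CPM) and Plcb4 (30.3 ± 24.3 CPM). Of the adenylyl cyclase genes, Adcy6 was counted in all cells (7.12 ± 3.62 CPM), and Adcy3, Adcy7 and Adcy9 were counted in 10 cells each. Adcy4 stood at 88.1 CPM in cell 10 and Adcy8 at 95.8 CPM in cell 11, with at most 11.4 and 18.3 CPM elsewhere.

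**Figure D5:**
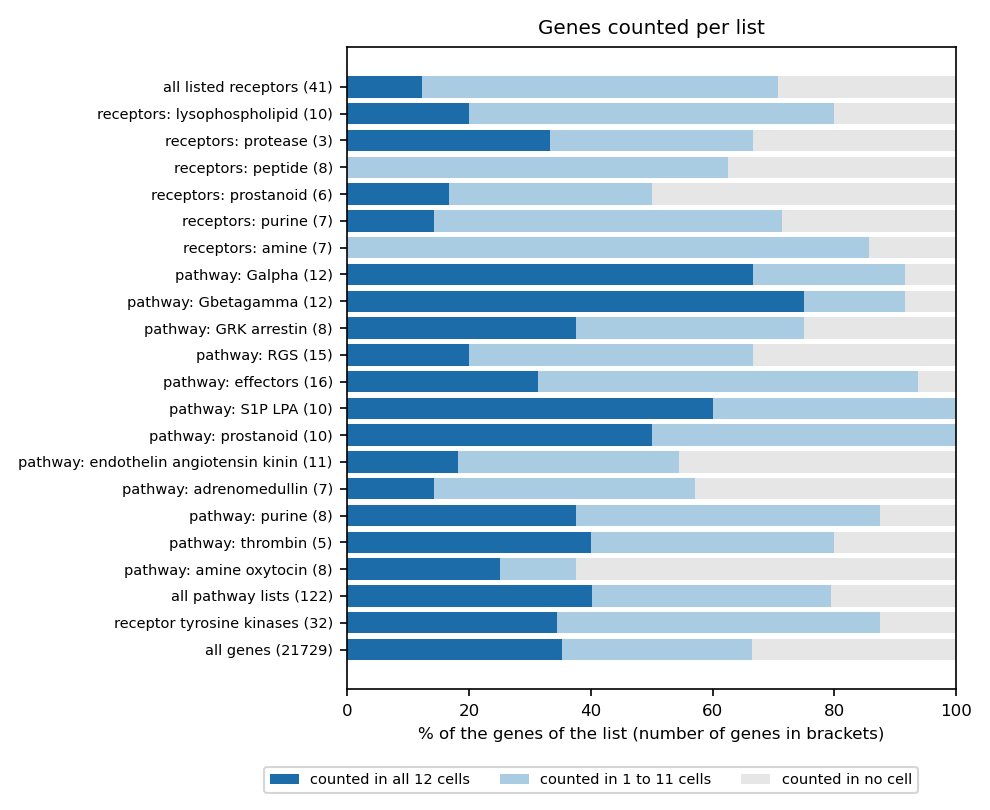
Share of the genes of each list (horizontal, in %) counted in all 12 cells, in 1 to 11 cells or in no cell, with the number of genes in brackets. The bar for all 12 cells reaches 12.2% for the 41 receptors, 40.2% for the 122 pathway genes, 34.4% for receptor tyrosine kinases and 35.3% for all genes.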

How the data were processed

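Messenger RNA of 12 single cultured CPCs was copied as full-length cDNA with the Smart-Seq v4 kit, followed by Nextera XT library construction. Raw read counts for every gene and cell were deposited by the authors, without normalization. According to the paper's methods and the submitters' processing notes, reads were mapped to mm10 with STAR (version 2.5.2b) at default settings, and uniquely mapped reads were kept. The counting program, gene annotation and strand rule are not given in the sources used here, so overlapping genes and close copies can lose or gain reads.

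CPM was the count divided by the total of the cell, times 1000000. TPM used the union of exons of GENCODE vM21, on the build of mm10, in which 98.4% of the symbols (21384 of 21729) matched. Coordinates count from 1. A gene was called counted at 1 count or more. For equal depth, counts were thinned once to 3453708 per cell with a fixed seed. Promoter windows came from RefSeq (GRCm38.p6), using the first listed start. Poisson intervals of counts were exact at the 0.95 level. Shares over all genes stand beside those of the receptors as background, with no test. In all 66 pairs of cells the counts differed by more than the sampling noise of reads, so no library was a plain copy or resequencing of another. A second amplification of the same cell would not be seen in this way. No doublet caller was run on these 12 hand-picked cells.

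The receptors and lists were chosen with earlier results of these data known, although no measured value enters the rule for the receptors. Lowest, median and highest cells were given for receptors counted in all 12 cells or reaching 10 CPM in any cell (14 receptors), counts and ranges for the others, cell 10 beside the other cells where it held over 50% of the sum, and, of each pathway list, the 3 genes highest by mean TPM and direct partners of receptors named. Some items under this rule are not reported here. G protein coupling and ligand groups follow textbook knowledge. Detection thresholds, scaling, gene length, summary, depth, filters and the cells used were varied, and leaving out cells 10 and 11 together was added after seeing the data. The measure of variation and the thinning were tried on simulated counts, and the other steps were not. The software was Python 3.11.15 with scipy 1.17.1, pandas 2.3.3, numpy 2.4.6 and, for plots, matplotlib 3.10.9.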

Additional observations from a re-analysis of the deposited data

How the results depend on the processing

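The 10 summary values of the receptors and pathway genes were recomputed under 41 alternatives besides the leaving out of single cells, and 35 of these left counts of genes within 1.5 times, the share of values within a binomial interval that treats them as independent, which values of the same gene are not, and the other values within the spread between cells. The 6 that went past these limits follow from a stricter definition: the share of values counted was 30.7% at 5 counts or more, 27.6% at 10 counts or more and 30.9% at 1 CPM or more, against 35.6%; the median number of receptors per cell was 11 at 10 counts or more, against 15; 5 receptors had a mean of at least 20 CPM, against 8 at 10 CPM; and 2 had over 80% of their sum in cell 10, against 4 with over 50%. The 5 receptors counted in all cells were 5 under every threshold and after thinning, and 4 without those whose exons lie in the span of another gene.

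With each cell left out in turn, 27 to 29 receptors were counted, 5 to 6 in all cells left, with 34.6 to 36.6% of values counted, a median of 15 per cell and 7 to 8 at a mean of 10 CPM. The 3 highest receptors, ranked anew each time, held 79.7 to 84.6% of the level, the median summed level was 587 to 602 CPM, the variation median of the receptors past its filter was 0.27 to 0.51 (0.34 with all cells, the value of Adora2b), and 49 to 51 pathway genes were counted in all cells. Without cells 10 and 11, an alternative chosen after seeing the data, the 3 highest receptors, ranked anew, held 79.4%, 7 receptors were counted in all cells and the median sum was 576 CPM.

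No paired analysis was possible because the cells form 1 group and no result comes from a test. With 12 cells of unnamed origin, the spread between cultures or animals could not be measured. A receptor at 0 was not detectable at 0.527 to 0.869 CPM, which does not show that it is absent, and transcript level says nothing of protein at the membrane.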
